A study of Mus musculus with 4 samples.

Results

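The T cell receptor complex, the CD8 coreceptor and the enzymes that act first on them were followed through 10 genes, found by their symbols among 17559 listed genes. They were *Cd3d*, *Cd3e*, *Cd3g* and *Cd247* for the signalling chains, *Cd8a* and *Cd8b1* for the coreceptor, *Lck*, *Zap70* and *Fyn* for the kinases, and *Ptprc* for the phosphatase CD45. Gene expression had been measured by RNA-seq in mouse CD8+ T cells of strain C57BL/6 and genotype OT-I, a transgene that gives the cells one rearranged receptor for a peptide of ovalbumin, from tissue labelled LN. Untouched cells of over 95% purity had first been activated for 2 d with IL-2 (10 ng/ml) on plates coated with antibodies to CD3 at 1 µg/ml and to CD28 at 2 µg/ml, and were then moved to a fresh plate and kept for 2 d more in IL-2. The 2 control libraries came from cells without NaBu and the 2 NaBu libraries from cells given 1 mM NaBu for 12 h. Sodium butyrate, for which NaBu commonly stands, inhibits histone deacetylases. The comparison asks how butyrate changes transcripts in CD8+ T cells that had already been activated through the receptor described here. The labels do not say whether the libraries came from separate cultures or animals, so each p-value reflects just the spread among these samples, which may be technical.

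As background, the clonotypic alpha and beta chains of the receptor bind peptide on MHC but have almost no cytoplasmic part. Signals pass through CD3 delta, epsilon and gamma and through the zeta chain encoded by *Cd247*, whose tails carry the tyrosine motifs called ITAMs. CD8 binds MHC class I and brings LCK to the receptor, LCK or FYN phosphorylates the ITAMs, and ZAP-70 docks there and phosphorylates the adaptors LAT and SLP-76. CD45 keeps LCK ready by removing its inhibitory phosphate, which the kinase CSK puts on. The transcripts of the receptor's alpha and beta chains were not analysed here, and no protein was measured.

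Libraries held 19857701 to 20548571 expected counts, the estimated fragments per gene. The lowest value of any member was 1673 counts (*Cd247*, NaBu 1). The cells matched their label, with *Cd3e* above an FPKM of 293 and *Cd8b1* above 155 in all 4 libraries. Of the CD8 T cell markers analysed, 2 rose and 3, all members, fell. *Gzmb* rose from an FPKM of 4773.88 and 4709.44 to 9677.07 and 9582.55, and *Prf1* from 139.13 and 109.48 to 586.43 and 612.6. FPKM scales fragments to transcript length and to the library's mapped total, so levels can be compared between genes. Of markers of other cells, *Ncr1*, of NK cells, stayed at or under an FPKM of 0.1. The 2 B cell markers analysed summed to 5.67 and 4.05 FPKM in the controls, against 2.62 and 1.92 with NaBu, almost all of it *Cd79b*. The 6 myeloid and dendritic markers analysed summed to 16.4 and 14.8 in the controls and 40.3 and 38.3 with NaBu, mostly from *Cd68*, a lysosomal gene that T cells also express. Of the 5 myeloid markers tested, 4 rose and *Xcr1* fell, and *Itgam* went from 0.45 in both controls to 4.83 and 3.79. The 3 NK markers analysed summed to 80.9 and 85.3 in the controls and 144 and 136 with NaBu, mostly *Eomes*, which activated CD8 T cells also express and which rose. *Klrb1c*, an NK receptor gene, fell from 10.47 and 9.24 to 4.94 and 5.57. These sums moved with the groups, and their part in the results was not tested. In bulk RNA, fewer cells of a type and less RNA per cell cannot be told apart.

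The 3 CD3 genes lie side by side on chromosome 9 of GRCm38.p6 (mm10). *Cd3g* (44969572 to 44980431) and *Cd3d* (44981769 to 44987052) are read away from each other, from start sites 1355 bases apart, and *Cd3e* (44998735 to 45009663) follows 11683 bases beyond *Cd3d*. The 250 bases before the start sites of these genes are shown because the *Cd3g* and *Cd3d* transcripts, which start so near each other, moved in opposite directions. Those of *Cd247* and *Ptprc*, which fell most without a correction for GC content, are set beside them. For both, the printed window lies inside the annotated span of the gene, and *Ptprc* has 2 listed start sites, of which the first is shown. The sequences are RefSeq's, on the build GRCm38.p6 and 5′ to 3′ on the gene's own strand, and 9 of the 10 members had one. Capitals mark matches, on either strand, to any of 5 motifs. The first is AGGAAG, the core that ETS factors bind. E-boxes, which bind E proteins, were searched for in the form CACCTG and also in the palindromic form with other middle bases, CAGCTG. The core bound by RUNX factors was searched for as TGTGGT. The TATA box, which helps to place the start of transcription, was searched for as TATAAA.
Cd3g chr9:44980432-44980681, minus strand: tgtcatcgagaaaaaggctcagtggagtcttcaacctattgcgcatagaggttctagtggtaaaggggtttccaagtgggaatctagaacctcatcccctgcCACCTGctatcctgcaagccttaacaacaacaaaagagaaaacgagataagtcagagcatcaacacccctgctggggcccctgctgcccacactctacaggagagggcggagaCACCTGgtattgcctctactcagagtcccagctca
Cd3d chr9:44981536-44981785, plus strand: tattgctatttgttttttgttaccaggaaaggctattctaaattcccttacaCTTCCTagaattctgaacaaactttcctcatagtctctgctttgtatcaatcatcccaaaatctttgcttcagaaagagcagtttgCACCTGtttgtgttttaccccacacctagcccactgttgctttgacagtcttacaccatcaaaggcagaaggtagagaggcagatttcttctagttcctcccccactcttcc
Cd3e chr9:45009612-45009861, minus strand: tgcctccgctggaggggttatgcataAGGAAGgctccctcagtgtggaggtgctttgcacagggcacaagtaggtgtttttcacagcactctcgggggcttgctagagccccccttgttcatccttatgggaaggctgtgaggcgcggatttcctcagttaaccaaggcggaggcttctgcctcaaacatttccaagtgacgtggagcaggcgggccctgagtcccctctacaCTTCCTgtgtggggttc
Cd247 chr1:165788431-165788680, plus strand: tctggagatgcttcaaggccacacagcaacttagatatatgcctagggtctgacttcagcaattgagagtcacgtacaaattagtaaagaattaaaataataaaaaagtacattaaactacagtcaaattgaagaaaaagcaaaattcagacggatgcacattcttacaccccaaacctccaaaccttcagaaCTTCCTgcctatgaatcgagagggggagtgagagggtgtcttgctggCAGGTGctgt
Ptprc chr1:138175306-138175555, minus strand: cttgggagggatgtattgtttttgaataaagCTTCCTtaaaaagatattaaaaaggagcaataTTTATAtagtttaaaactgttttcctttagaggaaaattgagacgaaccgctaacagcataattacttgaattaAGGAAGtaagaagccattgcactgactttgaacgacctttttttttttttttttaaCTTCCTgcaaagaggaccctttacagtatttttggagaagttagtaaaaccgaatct
Matches are letters in these windows and do not show that a factor binds. Among 27025 promoters of the same length, 1 per gene, the ETS core occurred in 29.2%, the first E-box form in 17.1%, the palindromic form in 12.8%, the RUNX core in 14.2% and the TATA box in 13%. No printed matches overlapped each other. The *Cd3g* window held 2 E-box matches and no ETS core, while that of *Cd3d* held 1 of each. The *Ptprc* window held 3 ETS cores and 1 match to the TATA box, which lay nearer the far end of the window than the start site. The window of its other start site overlaps it. That window held 1 ETS core, a site also counted in the first, and no TATA box match. The window of *Fyn*, not printed, held none of the 5 motifs and 21 CG dinucleotides, against a median of 6 over all promoters. Those of *Cd3d* and *Cd8a* held 0 CG dinucleotides. At the first listed start site *Lck* had 1, *Cd247* 3, *Cd3g* and *Ptprc* 4 each, *Zap70* 6 and *Cd3e* 7. A link between these counts and the direction of change was not tested.

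NaBu was accompanied by a lower level of most of these transcripts. By edgeR's quasi-likelihood test, called at a Benjamini-Hochberg adjusted p under 0.05 over all 12943 tested genes, 8 of the 10 members fell and 2 rose, *Cd3g* and *Fyn*. The transcriptome moved widely in this comparison, and 68.6% of all tested genes were called, 34.1% lower and 34.5% higher. All members passed the filter on low counts. All 10 members were called, where 68.6% of all tested genes were, so a call by itself was common. Whether genes of similar level were called as often was not tested. The split of 8 lower to 2 higher stands beside an even split over all genes. On library totals 5175 of all tested genes were higher and 3720 lower, and of the members 2 were higher and 7 lower. The median log2 fold change was -0.54 over the members and 0.00471 over all tested genes. Folds and log2 fold changes here and below are edgeR's, from counts scaled between libraries, unless another setting is named. They therefore differ from the ratio of the FPKM values printed beside them. Against the stricter null of a 1.5-fold change (edgeR's glmTreat), 3 members passed, *Ptprc*, *Cd247* and *Cd3d*, all lower, where 12.1% of all tested genes passed as lower and 17.1% as higher. For every member the 2 control values and the 2 NaBu values did not overlap in FPKM, which held for 84% of tested genes.

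**Figure D1:**
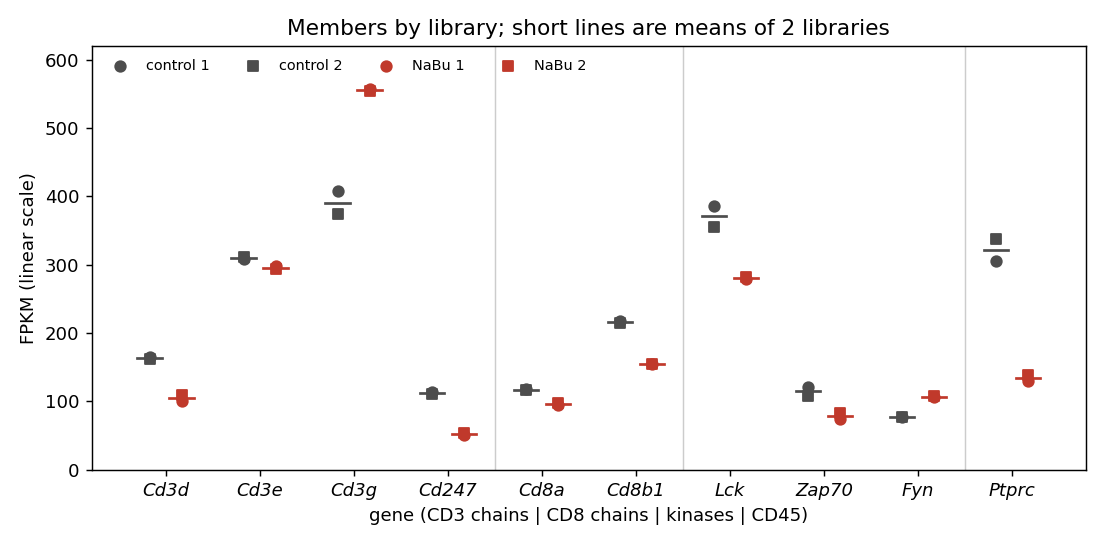
FPKM of the 10 members on a linear axis in control 1 and 2 (grey) and NaBu 1 and 2 (red), in the order CD3 and zeta chains, CD8 chains, kinases and CD45, with short lines at the means of 2 libraries. The red points of *Cd3g* and *Fyn* lie above the grey ones, and those of the other 8 genes lie below.

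The 4 signalling chains changed by unequal amounts and not in one direction. *Cd247* (chromosome 1, 165779952 to 165871153), encoding the zeta chain with most of the complex's ITAMs, stood at 114.01 and 110.96 FPKM in the controls, against 50.29 and 53.35 FPKM with NaBu. It fell 2.32-fold (log2 -1.21 ± 0.06 SE, edgeR adjusted p = 5.02e-08), and 5.52% of all tested genes had a lower log2 fold change. *Cd3d*, encoding CD3 delta, stood at 165.22 and 162.19 FPKM in the controls, against 100.25 and 109.39 FPKM with NaBu. It fell 1.67-fold (log2 -0.74 ± 0.06 SE, edgeR adjusted p = 2.56e-06). *Cd3g*, encoding CD3 gamma, moved the other way, from an FPKM of 407.01 and 374.69 to 556.7 and 554.5. It rose 1.33-fold (log2 0.41 ± 0.06 SE, edgeR adjusted p = 0.00022). With each library's trend over GC content removed its log2 fold change was 0.73, the transcript being low in GC at 38.5%.

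*Cd3e*, encoding CD3 epsilon, which pairs with both delta and gamma, hardly moved. It stood at 307.98 and 310.57 FPKM in the controls, against 297.54 and 293.24 FPKM with NaBu. The log2 fold change of -0.16 ± 0.06 (SE) passed edgeR's test narrowly (adjusted p = 0.0309). It did not pass on library totals (log2 -0.07, edgeR adjusted p = 0.344) or without NaBu 1 (0.183) or NaBu 2 (0.231). Counts of *Cd3d* and *Cd247* were not whole numbers in any library; RSEM gives such values where it divides reads, and which reads these were was not tested. *Cd247* overlaps *Pou2f1*, whose level was far lower, with an FPKM of 3.39 to 3.91 over the 4 libraries.

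The sum over the 4 chains hardly moved in FPKM as deposited, while its make-up shifted. The sum was not computed on the TMM scaling used for the folds, and the direction of so small a difference depends on the scaling. The shares within a library do not. The summed FPKM was 994 and 958 in the controls and 1005 and 1010.5 with NaBu. *Cd3g* made up 40.9% and 39.1% of it in the controls and 55.4% and 54.9% with NaBu. *Cd3d* went from 16.6% and 16.9% to 9.98% and 10.8%, and *Cd247* from 11.5% and 11.6% to 5.0% and 5.28%. The share of *Cd3e* was 31% and 32.4% in the controls and 29.6% and 29.0% with NaBu. Each of these shares lay apart between the groups, by the least for *Cd3e*.

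**Figure D2:**
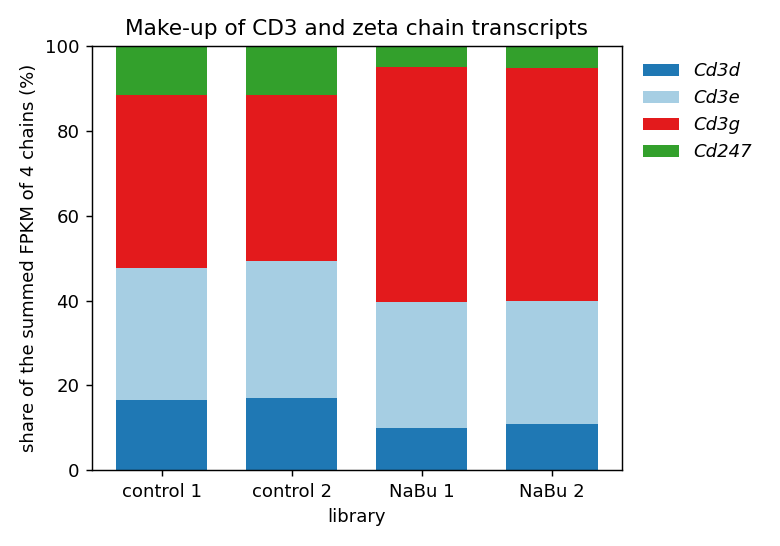
Share of each gene, in percent, in the summed FPKM of *Cd3d*, *Cd3e*, *Cd3g* and *Cd247*, stacked to 100% for each of the 4 libraries. The *Cd3g* band widens from about 40.9% and 39.1% in the controls to 55.4% and 54.9% with NaBu, and the *Cd247* and *Cd3d* bands narrow.

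Ratios of FPKM taken within a library do not depend on how libraries are scaled to each other. The ratio of *Cd3g* to *Cd3d* was 2.46 and 2.31 in the controls and 5.55 and 5.07 with NaBu. The ratio of *Cd3g* to *Cd247* was 3.57 and 3.38 against 11.1 and 10.4, a change of 3.09 times in the group means. Even the 2 falling chains did not keep step, with a ratio of *Cd3d* to *Cd247* of 1.45 and 1.46 in the controls and 1.99 and 2.05 with NaBu. The ratios of *Cd3g* to *Cd3d* and of *Ptprc* to *Ptprcap*, given with CD45, were chosen after the values were seen. No test was run on any ratio, since 2 against 2 values cannot go below an exact two-sided permutation p of 0.333.

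Both coreceptor genes fell. *Cd8a* (chromosome 6, 71373427 to 71379171), encoding the alpha chain that binds LCK, stood at 118.38 and 115.87 FPKM in the controls, against 93.88 and 96.96 FPKM with NaBu. It fell 1.31-fold (log2 -0.39 ± 0.06 SE, edgeR adjusted p = 0.000171). *Cd8b1* (71322788 to 71337492), encoding the beta chain of the heterodimer found on conventional CD8 T cells, stood at 217.85 and 215.13 FPKM in the controls, against 155.14 and 155.16 FPKM with NaBu. It fell 1.49-fold (log2 -0.58 ± 0.06 SE, edgeR adjusted p = 7.68e-06). The ratio of *Cd8a* to *Cd8b1* was 0.543 and 0.539 in the controls and 0.605 and 0.625 with NaBu, so the beta transcript was the more abundant in all 4 libraries and its lead was smaller with NaBu. Counts of *Cd8b1* were also not whole in any library.

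*Cd4*, the coreceptor that CD8 T cells silence, was close to 0 throughout, at 0.02 and 0.03 FPKM in the controls, against 0.66 and 0.65 FPKM with NaBu. It nonetheless passed the test as higher (edgeR adjusted p = 8.87e-06). Its control level is too near 0 for a meaningful fold. Of the other CD4 T cell markers, *Foxp3* had an FPKM of 0.12 to 0.24 over the 4 libraries and did not pass (edgeR adjusted p = 0.499), and *Cd40lg* was at 0.28 and 0.24 in the controls and 0.12 and 0 with NaBu. *Zbtb7b*, the CD4 lineage factor, was the one with a sizeable level, at 20.82 and 19.21 FPKM in the controls, against 26.08 and 26.29 with NaBu. It was called higher (edgeR adjusted p = 0.00209) and, with the GC trend removed, lower.

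Of the kinases, LCK and ZAP-70 transcripts fell and the FYN transcript rose. *Lck* (chromosome 4, 129548344 to 129573641), the Src family kinase carried by CD8, stood at 385.61 and 355.45 FPKM in the controls, against 279.47 and 281.4 FPKM with NaBu. It fell 1.41-fold (log2 -0.50 ± 0.07 SE, edgeR adjusted p = 6.27e-05). *Zap70* (chromosome 1, 36761798 to 36782821), the Syk family kinase that docks on phosphorylated ITAMs, stood at 121.25 and 108.03 FPKM in the controls, against 73.98 and 82.24 FPKM with NaBu. It fell 1.57-fold (log2 -0.65 ± 0.08 SE, edgeR adjusted p = 2.89e-05). With the GC trend removed its log2 fold change was -1.23, the transcript being rich in GC at 59.6%. *Fyn* (chromosome 10, 39369743 to 39565381), the second Src family kinase that can phosphorylate ITAMs, stood at 77.38 and 76.72 FPKM in the controls, against 105.67 and 107.37 FPKM with NaBu. It rose 1.29-fold (log2 0.37 ± 0.06 SE, edgeR adjusted p = 0.000223). *Lck* stayed the more abundant, but the ratio of *Lck* to *Fyn* was 4.98 and 4.63 in the controls and 2.64 and 2.62 with NaBu.

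*Ptprc* (chromosome 1, 138062859 to 138175756), encoding CD45, had the log2 fold change farthest from 0 of the 10 by the edgeR fit, though not with the GC trend removed, where it was -1.08 against -1.23 for *Zap70* and -1.09 for *Cd247*. It stood at 305.58 and 337.84 FPKM in the controls, against 129.59 and 138.02 FPKM with NaBu. It fell 2.57-fold (log2 -1.36 ± 0.08 SE, edgeR adjusted p = 9.28e-08), and 4.26% of all tested genes had a lower log2 fold change. *Ptprcap*, encoding a small protein that associates with CD45, stood at 245.46 and 233.82 FPKM in the controls, against 86.18 and 100.71 FPKM with NaBu and fell 2.74-fold. The ratio of *Ptprc* to *Ptprcap* was 1.24 and 1.44 in the controls and 1.5 and 1.37 with NaBu, and these values overlapped.

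CD45 exists in isoforms that differ in exons spliced near the start, and RSEM's gene length, weighted by isoform, can register a change in their mix. The deposited length of *Ptprc* was 5424 and 5412 bases in the controls and 5405 and 5415 with NaBu, which overlapped between the groups. Lengths of *Cd247*, *Lck*, *Zap70* and *Fyn* also overlapped between the groups. That of *Cd8a* did not, at 3119.61 and 3119.8 against 3120.06 and 3121.16, a difference of under 2 bases. Isoforms themselves were not analysed here. Of 7 genes listed for CD45 splicing and partners, 2 rose and 5 fell, where 34.5% of all tested genes rose and 34.1% fell. *Hnrnpll*, the splicing factor known for exon skipping in CD45, rose 1.25-fold by edgeR. Its FPKM was 15.4 ± 0.361 (SD, n = 2, also below) in the controls and 20.6 ± 0.842 with NaBu. *Sfpq*, *Ptbp1* and *Hnrnpl*, which also act on CD45 exons, fell 1.94-fold, 1.76-fold and 1.69-fold. The other gene that rose was *Cd22*, a B cell lectin outside the naming rule, from an FPKM of 0.35 and 0.25 to 0.68 and 0.59.

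**Figure D3:**
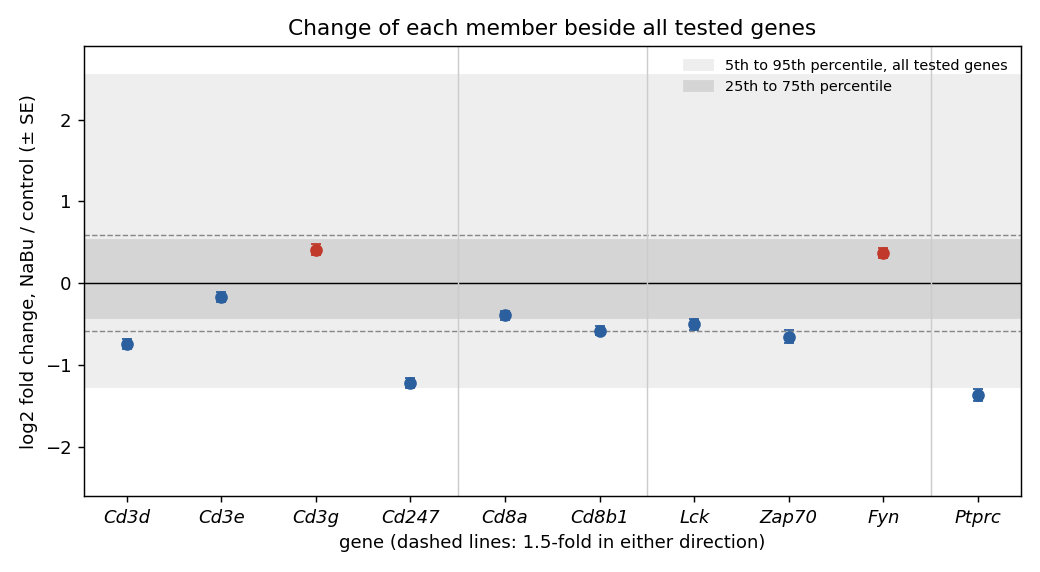
Log2 fold change of NaBu over control with its SE for each member (blue lower, red higher), with grey bands for the 5th to 95th and 25th to 75th percentiles of all tested genes and dashed lines at 1.5-fold. *Ptprc* (-1.36) and *Cd247* (-1.21) lie lowest, *Cd3e* (-0.16) nearest to 0, and *Cd3g* (0.41) and *Fyn* (0.37) above it.

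The order of the levels changed with these shifts. In the controls *Cd3g* and *Lck* were highest, and their values overlapped. *Ptprc* and *Cd3e* came next and also overlapped, then *Cd8b1* and *Cd3d*. *Cd8a* lay above *Cd247* without overlap, *Zap70* overlapped with both, and *Fyn* was lowest, at a mean of 77.1. With NaBu *Cd3g* stood alone at 555.6 ± 1.56, followed by *Cd3e*, *Lck*, *Cd8b1* and *Ptprc* without overlap. *Fyn* then overlapped with *Cd3d*, and *Cd8a*, *Zap70* and *Cd247* followed in that order without overlap. *Ptprc* thus lay above *Cd8b1* in the controls and below it with NaBu, and *Fyn* lay below *Cd8a*, *Zap70* and *Cd247* in the controls and above them with NaBu.

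Beyond the members, 46 other genes of proximal receptor signalling were tested. Of these 10 rose, 25 fell and 11 did not pass, or 14 rose and 21 fell on library totals. Of all tested genes 68.6% were called, 34.5% higher and 34.1% lower, so being called was common. Their median log2 fold change was -0.20. This list had been chosen with earlier results of these data known. The largest fall was that of *Dok2*, an adaptor that restrains receptor signalling, from an FPKM of 174.24 and 159.83 to 18.86 and 20.3 (9.12-fold, log2 -3.19 ± 0.07 SE, edgeR adjusted p = 1.29e-09). *Trat1*, encoding the adaptor TRIM that associates with the receptor complex, fell 4.16-fold, *Sla*, encoding an adaptor that promotes receptor degradation, 3.1-fold, and *Sh2d2a*, encoding the LCK-binding adaptor TSAd, 2.89-fold.

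The substrates and enzymes next to the members moved in both directions. *Lat*, the membrane scaffold that ZAP-70 phosphorylates, stood at 250.26 and 232.72 FPKM in the controls, against 200.54 and 197.58 FPKM with NaBu and fell 1.3-fold. *Lcp2*, encoding SLP-76, fell 1.75-fold, a gene outside the naming rule and named here because ZAP-70 acts on it. *Tec*, a kinase that can act after LAT, rose 1.57-fold, its control level being 6.53 ± 0.205 FPKM (SD, n = 2).

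Of the genes that oppose CD45, *Csk* stood at 115.74 and 113.53 FPKM in the controls, against 105.96 and 106.63 FPKM with NaBu. Its log2 fold change was -0.20 ± 0.06 (SE), lower by edgeR (adjusted p = 0.00947) but not on library totals (0.124). *Pag1*, encoding the membrane adaptor that holds CSK, rose 2.16-fold, from an FPKM of 14.39 and 14.31 to 32.67 and 33.65, the largest rise of the list. *Orai1*, encoding the calcium channel opened after receptor signalling, rose 1.86-fold and *Grb2*, an adaptor of the Ras pathway, 1.64-fold.

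**Figure D4:**
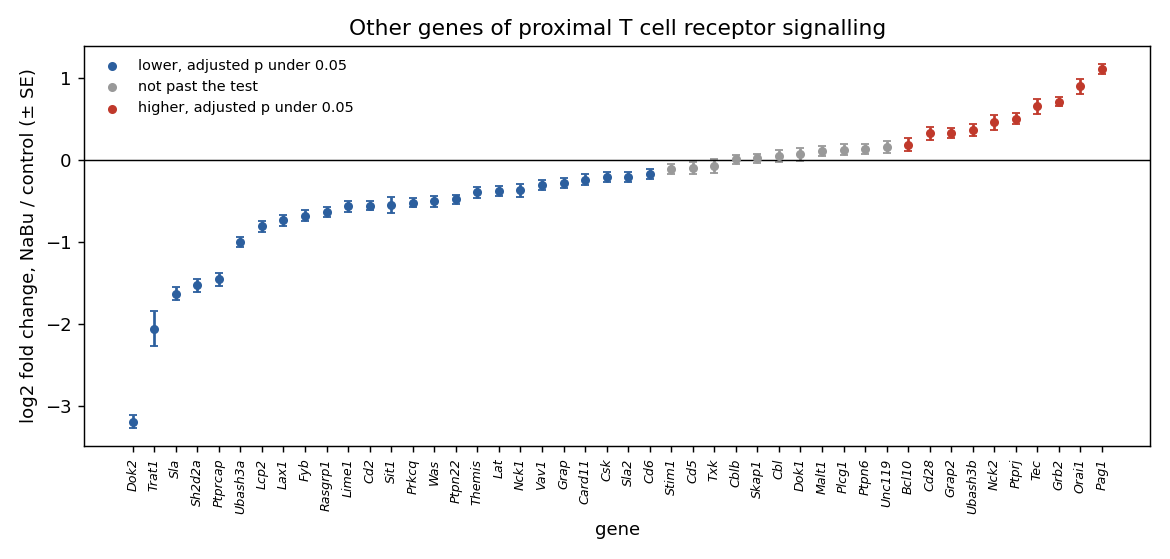
Log2 fold change of NaBu over control with its SE for the 46 other proximal signalling genes, ordered by size and coloured by call at an adjusted p of 0.05 (blue lower, grey not past the test, red higher). The row runs from *Dok2* at -3.19 to *Pag1* at 1.11, with 25 genes lower and 10 higher.

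Genes that lie beside the members moved in both directions. Within 100 kb of a member there were 26 other tested genes, of which 11 rose, 8 fell and 7 did not pass, with a median log2 fold change of 0.15. Of all tested genes 34.5% rose and 34.1% fell. The genes named from these were chosen after their values were seen. *Ube4a*, 3957 bases from *Cd3g*, rose with a log2 fold change of 0.76. *Mpzl2*, 32681 bases beyond *Cd3e*, went from an FPKM of 0.28 and 0.24 to 6.05 and 5.5 (log2 4.39 ± 0.17 SE, edgeR adjusted p = 1.02e-08). *Hdac1*, encoding a histone deacetylase and lying 5698 bases from *Lck*, rose from an FPKM of 98.01 and 99.38 to 245.9 and 229.04. *Creg1*, 4643 bases from *Cd247*, rose from 4.82 and 5.41 to 18.73 and 19.58. In each of these last 2 pairs the neighbour rose where the member fell. Nearer to *Zap70* and *Cd8a*, which fell, *Tmem131* (9368 bases, log2 0.74) and *Rmnd5a* (9463 bases, 0.28) also rose. Other neighbours fell with their member, among them *Cox5b*, 68410 bases from *Zap70* (log2 -0.68). *Krcc1* (-0.41) and *Smyd1* (-1.07) lay 35963 and 60507 bases from *Cd8b1*, and *Amica1* (-0.73) 92101 bases from *Cd3d*. *Smyd1* was near the floor, at 0.39 and 0.46 FPKM in the controls and 0.21 and 0.22 with NaBu.

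**Figure D5:**
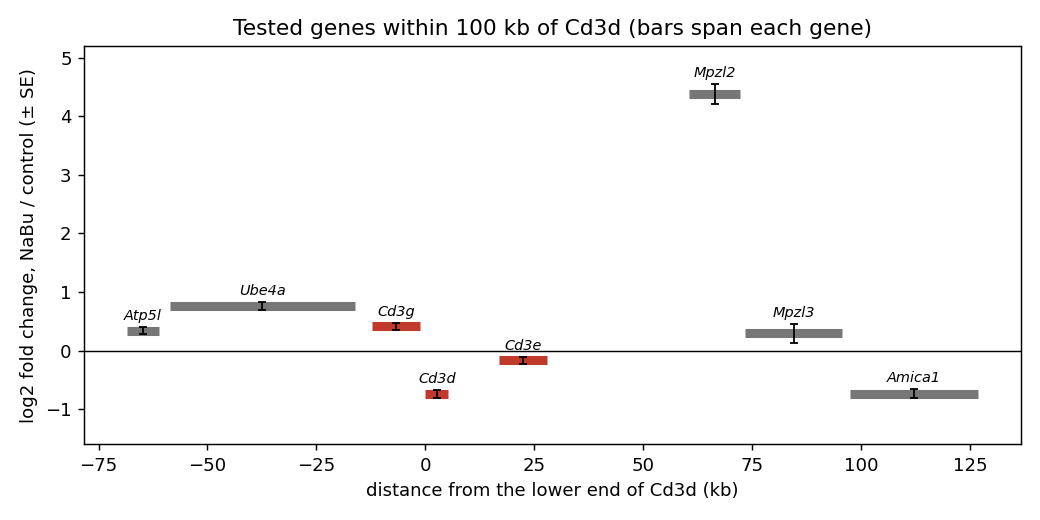
Log2 fold change of NaBu over control with its SE for the tested genes within 100 kb of *Cd3d*, drawn as bars that span each gene against the distance in kb from the lower end of *Cd3d*. *Cd3g* (0.41), *Cd3d* (-0.74) and *Cd3e* (-0.16), in red, differ in sign or size, and *Mpzl2* (4.39) stands highest.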

How the data were processed

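RNA-seq of 2 control and 2 NaBu libraries was used, grouped by sample title. The submitters' processing notes name Bowtie2, RSEM and the build mm10. Their versions, the annotation and the strand setting of the library kit are not given in these sources. The deposited expected counts are estimated fragments per gene, not normalized, and were rounded to whole numbers. The FPKM values were made by the authors and used as deposited; the deposited length is in bases. A gene with no value in a library was set to 0, as in the deposited series table.

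Counts were tested with edgeR 4.0.16 (R 4.3.3), TMM factors of 0.966 to 1.035, filterByExpr, and the quasi-likelihood test between the groups without covariates, with p-values adjusted over 12943 genes. With 2 libraries per group the fit left 2 residual degrees of freedom per gene. The test also drew on the spread of the other genes in these libraries, so a p-value does not rest on the gene's own spread alone. Stated folds are from this fit, on counts scaled by the TMM factors, while FPKM values are as deposited. SE is the absolute log2 fold change over the square root of F. The procedure was tested on simulated data in which most genes were left unchanged. That setting differs from this comparison, so it does not check the scaling between libraries. Coordinates and promoters are RefSeq's for GRCm38.p6. GC content came from GENCODE transcripts for 12397 tested genes.

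Members and lists were chosen with earlier results of these data known. Named were all members and, per list, up to 4 called genes per direction with an FPKM of 1 or more, plus a few by name, of which *Trac*, *Trbc1* and *Trbc2* were not analysed here. Some listed genes are not reported here and were left out of the list counts. Alternatives were other scalings and filters, DESeq2 1.42.0, limma 3.58.1 on log2(FPKM + 1) and log2(FPKM + 0.1), glmTreat, a replicate block, leaving out each library and, chosen after seeing the data, removal of each library's GC trend.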

Additional observations from a re-analysis of the deposited data

How the results depend on the processing

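No member changed direction in any of 15 alternatives, and 134 of the 150 results for single members kept their call. Of the 16 calls lost, 9 were those of *Cd3e* outside the 1.5-fold null, and the other 7 fell to that null. *Cd3e* was not called on library totals (adjusted p = 0.344), with the GC trend removed (0.505), with at least 5 CPM in 2 libraries (0.146), with the 3 limma fits (0.21 to 0.287), with the replicate block (0.0744) or without either NaBu library. Against a 1.5-fold change, 3779 of the 12943 tested genes were called, or 29.2%. Called with them were 3 of the 10 members and 11 of the 46 other proximal signalling genes. Leaving out 1 library gave 7099 to 8850 genes, 9 to 10 members and 28 to 37 proximal genes; the group with 1 library left is then assumed to vary like the other. Same-numbered libraries did not deviate together (correlation -0.0306 across genes). A value near 0 cannot show whether they share a culture, an animal or a batch. With the replicate block 8853 genes, 9 members and 33 proximal genes were called. The median log2 fold change of all genes was 0.102 on library totals. Ratios from counts over length gave 0.549 for *Cd8a* to *Cd8b1* in the controls and 2.61 for *Lck* to *Fyn* with NaBu. *Cd3e* was called by DESeq2 (0.0305) and without either control library (0.0118 and 0.0174), and its log2 fold change was -0.07 on library totals and -0.04 with the GC trend removed.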

Other observations

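Other kinases of the members' families were low in these cells. Of 7 other Src and Syk family genes, 5 were tested, of which 3 rose and 1 fell, or 4 and 1 on library totals. Over all tested genes 34.5% rose and 34.1% fell. *Src* went from an FPKM of 0.26 and 0.46 to 1.83 and 1.78, *Lyn* from 1.78 and 2.32 to 3.55 and 3.7, and *Yes1* from 1.53 and 1.56 to 2.28 and 2.57. *Fgr* fell 2.78-fold, from 3.76 and 3.65 to 1.42 and 1.43. *Lyn* and *Fgr* are best known from myeloid cells, whose summed markers were higher with NaBu as given above; the part of such cells was not tested. *Syk*, the relative of *Zap70*, was at 1.03 and 0.86 in the controls and 1.24 and 1.22 with NaBu and did not pass (edgeR adjusted p = 0.122). Together the 7 genes summed to 8.4 and 8.91 FPKM in the controls, against 10.3 and 10.7 with NaBu, while the lowest *Fyn* value was 76.72.

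Among ITAM adaptors of other receptors, *Fcer1g*, which can stand in for the zeta chain, stood at 14.41 and 16.49 FPKM in the controls, against 13.92 and 14.45 FPKM with NaBu and did not pass (edgeR adjusted p = 0.127). *Cd79b*, a B cell receptor chain, fell 2.32-fold from a mean FPKM of 4.66.

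Of 17 transcription factors of the T lineage, several of which are known to act at the CD3 and CD8 genes, 3 rose, 9 fell and 5 did not pass, with a median log2 fold change of -0.30. For comparison, 34.5% of all tested genes rose and 34.1% fell. *Runx3*, needed for *Cd8a* expression and *Cd4* silencing, rose 1.77-fold, from an FPKM of 61.99 and 58.55 to 107.35 and 121.32. *Cbfb*, its DNA-binding partner, fell 2.42-fold, from 78.77 and 90.17 to 36.97 and 37.67. *Myb* fell 2.43-fold, *Tcf3*, an E-protein gene, 1.81-fold and *Ikzf1*, encoding Ikaros, 1.59-fold. *Zbtb7b*, encoding the CD4 lineage factor ThPOK, was called higher, with a log2 fold change of 0.29, and lower with the GC trend removed, at -0.31. *Tox*, outside the naming rule for its low level, was the third to rise, from 0.39 and 0.46 to 0.86 and 0.77.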
